A study of Mus musculus with 9 samples.

Results

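Smooth muscle and myofibroblast contractile genes were followed in single-nucleus RNA sequencing (sNuc-seq) of mouse hearts after ischemia and reperfusion (I/R). The set held 9 genes, chosen by name, of 23747 genes in the files: Acta2, Tagln, Myl9, Cnn1, Myh11, Cald1, Tpm2, Lmod1 and Smtn. All 9 were found in the files, with 66097 unique molecular identifiers (UMIs, counted RNA molecules) in all. Hearts came from 9 C57BL/6 mice, 8 weeks old, split evenly over 3 groups. The sham group had been gavaged with vehicle for 7 days before surgery in which the needle was passed without tying the artery. For the I/R group the same vehicle course was followed by 30 min of ligation of the left anterior descending coronary artery and 24 h of reperfusion. The SBP group underwent the same I/R after 7 days of gavage with Shexiang Baoxin Pill, a traditional Chinese medicine compound that the labels call MUSKARDIA. The tissue below the ligation was used, and reads came from nuclei, so cytoplasmic RNA is largely missing. The labels do not say more of how the mice of a group were kept apart, and p-values measure the spread between these samples.

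Contraction of smooth muscle rests on actin filaments pulled by a smooth muscle myosin, switched on by phosphorylation of the myosin light chain and gated by caldesmon, calponin and tropomyosin on the actin filament. In the healthy heart these genes mark the mural cells of vessels, that is arterial smooth muscle cells and, in part, pericytes. After injury, cardiac fibroblasts can take on some of the same genes as they become myofibroblasts, with smooth muscle alpha-actin as the classical label. Serum response factor with its cofactors, which bind CArG boxes, and TEAD factors are known regulators of the program.

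The members hold different parts of this machinery, and positions are those of GENCODE vM21 on GRCm38. Acta2, at chr19:34241090-34255590 on the minus strand, encodes smooth muscle alpha-actin. Myh11, at chr16:14194535-14291372 on the minus strand, encodes the smooth muscle myosin heavy chain, and Myl9, at chr2:156775420-156781658 on the plus strand, a regulatory light chain of that myosin. Tpm2, at chr4:43514711-43523765 on the minus strand, encodes beta-tropomyosin. Cald1, at chr6:34598500-34775473 on the plus strand, encodes caldesmon, and Cnn1, at chr9:22099216-22109630 on the plus strand, calponin 1. Tagln, at chr9:45929619-45936058 on the minus strand, encodes transgelin (SM22), an actin-binding protein. Lmod1, at chr1:135324807-135368065 on the plus strand, encodes leiomodin 1, which nucleates actin filaments, and Smtn, at chr11:3517523-3540612 on the minus strand, encodes smoothelin, a protein of the smooth muscle cytoskeleton. Genes on the opposite strand overlapped Tagln (Pcsk7 and Gm48529), Cald1 (Gm13861, Npn2 and Gm14547), Lmod1 (Gm22796) and Smtn (Gm11946 and Gm11947). How the reads were counted with respect to strand is not given in the sources used here.

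RefSeq promoter windows on GRCm38.p6, from 250 bases before to 50 bases after a start, were on hand for 7 members and held 8 promoters, with 2 for Cald1. Tagln and Myh11 had no window. A CArG box stood in 1 of 8 member promoters (Myl9) and in 1.63% of 32851 promoters in all. A CArG box with 1 mismatch stood in 2 of 8 (Acta2 and Myl9), against 8.50% of all promoters. The TEAD motif CATTCC, on either strand, stood in 4 of 8 (Acta2, Lmod1, Smtn and 1 of the Cald1 promoters), against 14.7%. The Tpm2 and Cnn1 windows held none of the 3. The stretches below show the CArG-type boxes of Acta2 and the CArG box of Myl9, the best-known promoter feature of the program. The Myl9 box with 1 mismatch is left out. Also shown are the TEAD motifs of Cald1 and Smtn, which moved in opposite directions after I/R. Each is printed on the gene's own strand with the motif in capitals, GGAATG being CATTCC on the other strand. A match describes letters in a window and does not show binding.
Acta2, chr19:34255428-34255477, minus strand, CArG box with 1 mismatch: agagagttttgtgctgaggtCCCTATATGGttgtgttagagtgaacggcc
Acta2, chr19:34255378-34255427, minus strand, CArG box with 1 mismatch: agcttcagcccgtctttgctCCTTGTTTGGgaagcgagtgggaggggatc
Myl9, chr2:156775283-156775332, plus strand, CArG box: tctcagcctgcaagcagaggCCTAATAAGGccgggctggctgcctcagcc
Cald1, chr6:34598331-34598376, plus strand, TEAD motif: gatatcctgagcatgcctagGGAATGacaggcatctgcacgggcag
Smtn, chr11:3539489-3539534, minus strand, TEAD motif: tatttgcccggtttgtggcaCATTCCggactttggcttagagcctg

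The files held 49171 nuclei and 135423853 UMIs, fewer nuclei than the study states, and 290 of their 48881 different barcodes occurred in more than 1 mouse. Each mouse gave 4576 to 6418 nuclei, 10329520 to 18205985 UMIs and a median of 1540 to 2031 UMIs per nucleus. Nuclei were clustered without the 9 members and named from marker genes, so each cell type name means nuclei like that type. After removal of the 85 nuclei that a doublet caller marked, too few for it to have worked, 49086 nuclei were kept. They comprised 14150 fibroblasts, 12605 endothelial cells, 10537 cardiomyocytes, 9569 myeloid cells, 772 T cells, 335 B cells, 156 mural nuclei (smooth muscle cells and pericytes), 111 Schwann cells and 851 nuclei left unnamed. The cardiomyocytes of I/R mouse 1 stood apart from those of the other treated mice: 77.4% of them lay in the cluster led by Mhrt, a cardiac noncoding RNA, which held 84.3% to 93.2% of sham cardiomyocytes but 0% to 17.0% in the other 5 mice. For the 9 members, calls that change without that mouse are given both ways, while calls in the further gene lists come only from fits that hold it. That mouse was singled out after the clusters were seen, so the values without it are a description.

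Levels are UMIs per 1000000 UMIs of that cell type in a mouse (CPM), and they are compared between cell types for 1 gene, not between genes, since gene lengths differ. Only 156 nuclei, 0.318% of those kept and 0.837% of all UMIs, fell into the mural clusters, and yet they gave 55.2% of all Myh11 UMIs and 51.2% of all Lmod1 UMIs. They also gave 23.1% of Tagln, 19.6% of Acta2 and 18.7% of Myl9 UMIs, and the order of sources differed between the groups. Sham mural nuclei gave 25.9% of Acta2 UMIs, against 24.1% from endothelial cells, 18.5% from fibroblasts and 18.2% from cardiomyocytes. In I/R hearts fibroblasts gave 30.9%, myeloid cells 18.6%, mural nuclei 17.3%, cardiomyocytes 16.4% and endothelial cells 15.4%. Among the I/R mice, fibroblast levels of Acta2 and Tagln were highest in mouse 1, as given below, so the orders are those of pooled UMIs. In SBP hearts cardiomyocytes gave 40.7%, with levels that differed widely between the mice (23.5, 14.1 and 4.94 CPM), fibroblasts 22.8% and mural nuclei 18.1%. Tagln came to 27.2% from mural nuclei, 23.7% from endothelial cells and 19.3% from fibroblasts for sham, but fibroblasts gave the most for I/R (28.8%, mural nuclei 21.4%) and SBP hearts (31.1%, mural nuclei 22.7%). For Myl9 endothelial cells gave the most in sham hearts (24.3%), and fibroblasts in I/R (25.2%) and SBP hearts (31.0%). Cardiomyocytes gave 84.7% of Smtn UMIs. Fibroblasts gave 62.0% of Cald1 and 58.2% of Tpm2 UMIs. The part of activated fibroblasts, 3.93% of all nuclei, differed between the groups, at 1.79% of Tpm2 UMIs for sham (4 of 223), 51.5% for I/R and 48.7% for SBP hearts, and at 0.333%, 38.2% and 37.5% of Cald1 UMIs. Activated fibroblasts made up 0.0563% of sham, 6.40% of I/R and 5.15% of SBP nuclei, so the number of such nuclei differed as well. Cnn1 had 40 UMIs in all 9 hearts, too few for any comparison between groups.

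**Figure D1:**
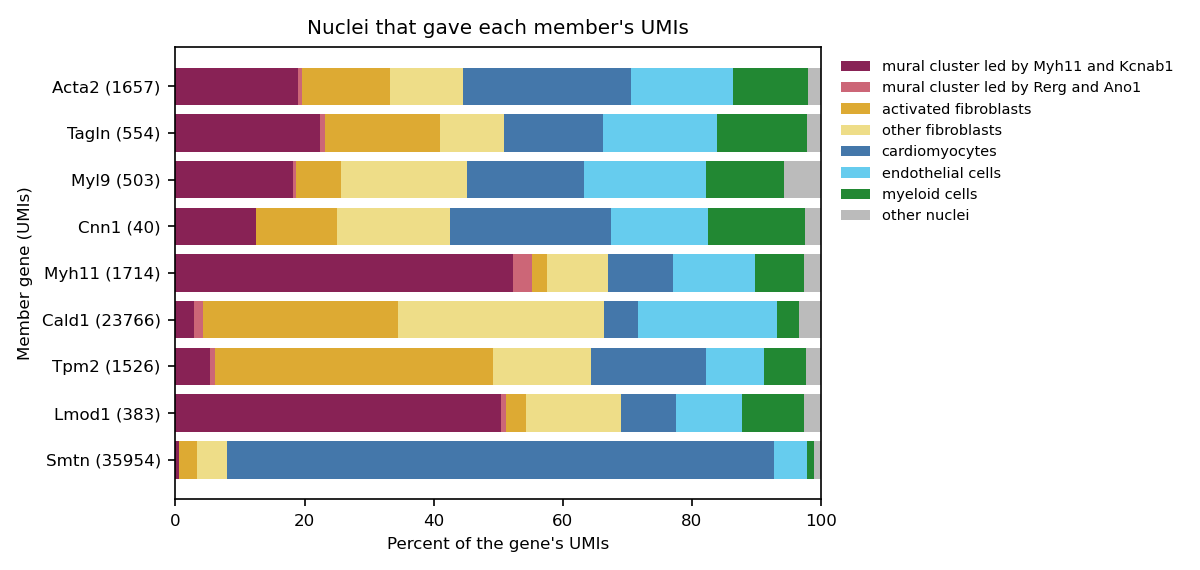
Share of each member's UMIs (horizontal axis, percent) that came from each kind of nucleus, all 9 mice summed, with the UMI total of the gene in brackets. Myh11 and Lmod1 drew 55.2% and 51.2% of their UMIs from mural nuclei, Tpm2 43.1% from activated fibroblasts (1.79% for sham, 51.5% for I/R and 48.7% for SBP hearts), and Smtn 84.7% from cardiomyocytes.

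The mural nuclei fell into 2 clusters that differed in how many contractile transcripts they held. The cluster led by Rerg and Ano1 (114 nuclei) was high in the pericyte genes Abcc9 (2077 CPM, against 583 in the other mural cluster), Kcnj8 (180 against 37.9), Steap4 (122 against 36.5) and Vtn (40.8 against 18.3), while the pericyte gene Rgs5 was lower in it (683 against 861). The cluster led by Myh11 and Kcnab1 (42 nuclei) was high in 5 of 6 smooth muscle genes, such as Mylk (462 CPM against 156) and Itga8 (358 against 69.5), while Mrvi1 was lower in it (419 against 492). Since these genes took part in the clustering, the differences describe the clusters and were not tested. The members were left out of the clustering, but nuclei of the same mice formed both clusters, and the values below are likewise a description, with Poisson intervals that cover counting error only.

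In the cluster led by Myh11 and Kcnab1, Myh11 reached 1257 CPM (95% interval 1176 to 1342), against 122 (91.1 to 161) in the cluster led by Rerg and Ano1. Acta2 stood at 442 CPM (395 to 494) against 24.0 (11.5 to 44.1), and Lmod1 at 271 (234 to 312) against 7.19 (1.48 to 21.0). Tagln was at 174 CPM (145 to 208) against 9.59 (2.61 to 24.6), and Myl9 at 129 (104 to 158) against 4.80 (0.581 to 17.3). The intervals of these 5 genes did not overlap between the clusters, nor did those of Tpm2, Smtn and Cald1 below. How many of all genes would show this was not counted. Tpm2 (117 CPM, 92.8 to 145, against 24.0, 11.5 to 44.1) and Smtn (260, 224 to 300, against 101, 72.6 to 136) differed in the same direction. Cald1 was high in both and differed less, at 985 CPM (913 to 1060) against 758 (676 to 846). Cnn1 had 5 UMIs in the 42 nuclei and 0 in the 114, with an upper bound of the interval of 8.85 CPM there.

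The 42 nuclei were unlike single cells in some respects. Their median was 13950.5 UMIs (1355 to 45119), against 3401.5 in the other mural cluster, and 34 of the 42 were among the nuclei with the highest doublet scores. Ttn, the titin gene of striated muscle, stood at 3868 CPM in them, against 15004 in cardiomyocytes and 583 in the other mural cluster, and the endothelial gene Pecam1 at 292 CPM, against 1516 in endothelial cells. Myh11 UMIs came from 24 of the 42 nuclei and Acta2 UMIs from 25. In the 8 nuclei that were not among the highest doublet scores, Myh11 stood at 1825 CPM (1591 to 2083) and Acta2 at 658 (521 to 820), against 1142 and 399 in the 34 others. Ttn was also higher in the 8 (6674 against 3299 CPM), and their Myh11 UMIs came from 4 nuclei. The part of doublets in these levels was not tested.

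**Figure D2:**
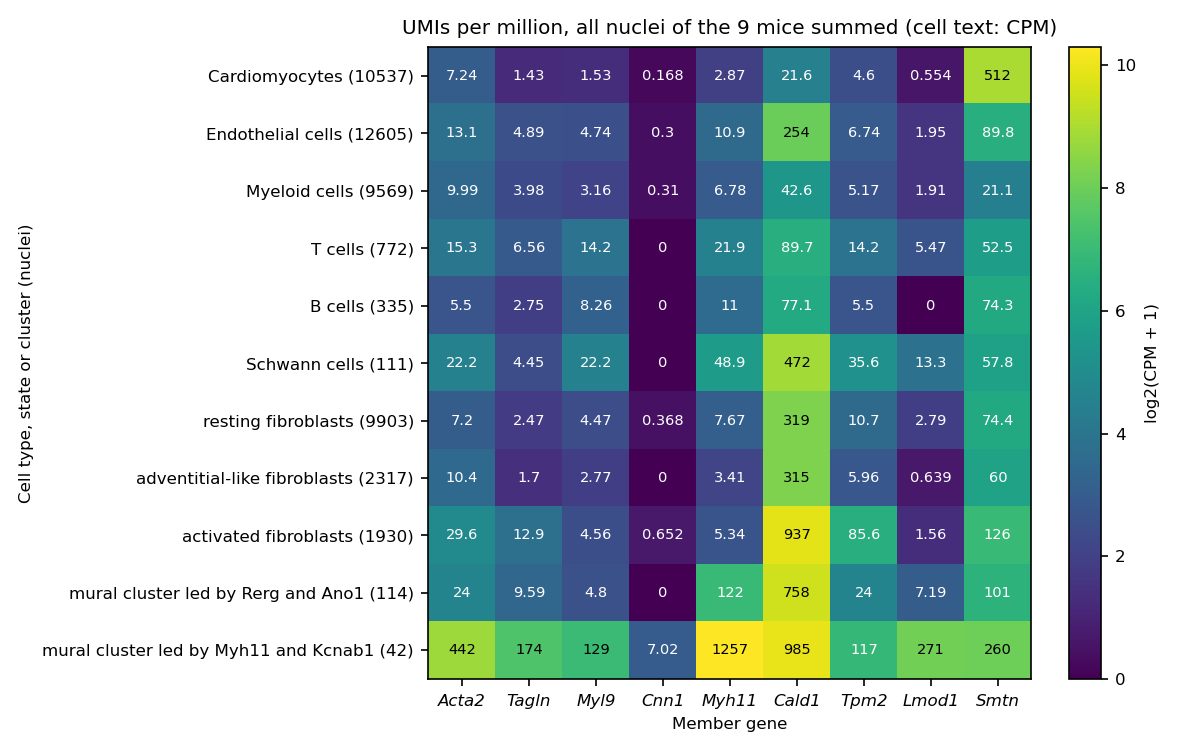
Level of each member (columns) in each cell type, state or cluster (rows, with nuclei in brackets), all nuclei of the 9 mice summed, printed in CPM and colored by log2(CPM + 1). Columns are read downward: 8 of the members were highest in the 42 mural nuclei led by Myh11 and Kcnab1 (Cald1 by little, at 985 CPM against 937 in activated fibroblasts), and Smtn in cardiomyocytes (512 CPM).

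Mural nuclei were too few to compare the groups within them: sham mice had 17, 17 and 38, I/R mice 10, 2 and 24, and SBP mice 19, 13 and 16. Only 2 mice reached the 20 nuclei required, so the planned test could not be run. Their share of all nuclei was 0.450% ± 0.211 (SD, n = 3) for sham, 0.206% ± 0.197 for I/R and 0.306% ± 0.0736 for SBP hearts. The shares overlapped between all groups (two-sided exact permutation test, p = 0.3 for I/R against sham and p = 0.5 for each comparison with SBP, where 0.1 is the smallest p that 3 against 3 allows). With nuclei named by marker scores the shares were 7.31%, 4.50% and 4.79%, with an exact permutation p = 0.1 for I/R and for SBP against sham. Such naming gives every nucleus the type of its highest score, with no minimum. It takes in far more nuclei than the mural clusters, so those shares are not of the same nuclei. Without I/R mouse 2 the difference of SBP from I/R by clusters was 0.0160 in place of 0.0997 percentage points. With a minimum of 10 nuclei, 8 mice entered the fit, and 0 of 7 members and 0% of 3078 genes were called by limma in any contrast (113 at an unadjusted p under 0.05 in I/R against sham, 71 in SBP against I/R and 118 in SBP against sham). When the members themselves took part in the clustering, 4 mice had 20 such nuclei, and Acta2 (-2.19, adjusted p = 0.0199) and Myh11 (-2.23, adjusted p = 0.000834) were called lower in SBP than in I/R, 2 of 4 members tested, where 1.42% of 2457 genes were called. In SBP against sham 1 of 4 was called (2.12% of genes) and in I/R against sham 0 (2.97%). With 3 groups among 4 mice, 2 of the groups were a single mouse and that fit has a single residual degree of freedom, and the clusters had been formed from the genes tested.

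Outside the mural nuclei, Cald1 was found in fibroblasts of all states and in endothelial cells. It stood at 955 CPM ± 160 (SD, n = 6 mice with at least 20 nuclei) in activated fibroblasts, 320 ± 44.5 (n = 9) in resting and 313 ± 46.8 in adventitial-like fibroblasts, 257 ± 62.9 in endothelial cells, 40.2 ± 10.3 in myeloid cells and 22.6 ± 8.72 in cardiomyocytes. Resting and adventitial-like fibroblasts did not differ beyond their spread, and endothelial cells overlapped with both, while myeloid cells and cardiomyocytes lay below all of these in every mouse. For Tpm2 the order was activated fibroblasts (84.1 CPM ± 14.2), resting fibroblasts (10.9 ± 2.80), endothelial cells (6.81 ± 3.83), adventitial-like fibroblasts (6.29 ± 3.65), cardiomyocytes (4.97 ± 3.04) and myeloid cells (4.59 ± 1.78). Between neighbours in this order, the ranges over mice did not overlap for activated and resting fibroblasts and overlapped for the rest. Acta2 stood at 28.1 CPM ± 16.0 in activated fibroblasts and between 7.26 ± 3.11 (resting fibroblasts) and 13.2 ± 9.07 (endothelial cells) in the other large types, whose ranges over mice overlapped. Tagln stood at 11.5 CPM ± 7.22 in activated fibroblasts and between 1.47 ± 0.809 (cardiomyocytes) and 5.02 ± 3.14 (endothelial cells) in the others. For Myl9, Myh11 and Lmod1 the fibroblast, endothelial and myeloid levels overlapped. Their means over mice ran from 3.16 to 4.73 CPM for Myl9, 3.45 to 11.2 for Myh11 and 0.878 to 2.66 for Lmod1.

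Fibroblasts held 3 states by their markers. Resting fibroblasts (9903 nuclei) were high in Abca8a and Scn7a, though of the other resting markers Gsn was higher in adventitial-like (1565 CPM against 1266) and Pdgfra in activated fibroblasts (511 against 485), adventitial-like fibroblasts (2317) in Pi16 (1093 CPM against 148 in resting) and Dpp4, and activated fibroblasts (1930) in the matrix genes Tnc (1399 CPM against 21.5 in resting) and Postn (901 against 38.5) and in Cthrc1 (207 against 3.05). Activated fibroblasts made up 0.200% ± 0.0600 of fibroblasts in sham hearts (n = 3), 24.8% ± 13.3 in I/R hearts and 16.6% ± 6.09 in SBP hearts. The 3 I/R hearts had 34.3%, 30.5% and 9.58%, and the 3 SBP hearts 17.96%, 21.8% and 9.88%. All treated hearts lay above all sham hearts (exact permutation test, p = 0.1, the smallest possible), and I/R and SBP hearts overlapped (p = 0.4). Markers that differ between the groups formed this state, so its share is a description of the clustering.

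Within a mouse, 4 members were higher in activated than in resting fibroblasts in 6 of 6 mice. The share of all genes that did so was not taken, so the count of 4 has no background. Tpm2 was 6.53 to 12.7 times as high (median 8.49), Acta2 1.73 to 11.6 times (median 3.88), Cald1 2.11 to 4.05 times (median 2.95) and Smtn 2.03 to 5.22 times (median 2.32). Tagln was higher in 5 of 6 mice, with ratios from 0.394 to 9.97. The remaining members did not show this difference: Myl9 and Myh11 were higher in 3 of 6 mice each, Cnn1 in 2 and Lmod1 in 1. Activated fibroblasts gave 35 Myl9, 41 Myh11, 12 Lmod1 and 5 Cnn1 UMIs in all, too few to show that these genes did not differ. Tpm2 levels in activated fibroblasts were 90.7, 78.1 and 68.0 CPM in I/R and 70.0, 94.9 and 102.8 in SBP hearts, against 6.50 to 15.6 in resting fibroblasts of all mice, with no overlap. Acta2 levels ran from 10.8 to 51.0 CPM in I/R and from 9.99 to 39.4 in SBP hearts, and overlapped with resting fibroblasts (2.97 to 11.6). The 2 states are clusters of the same libraries, and no test was made.

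**Figure D3:**
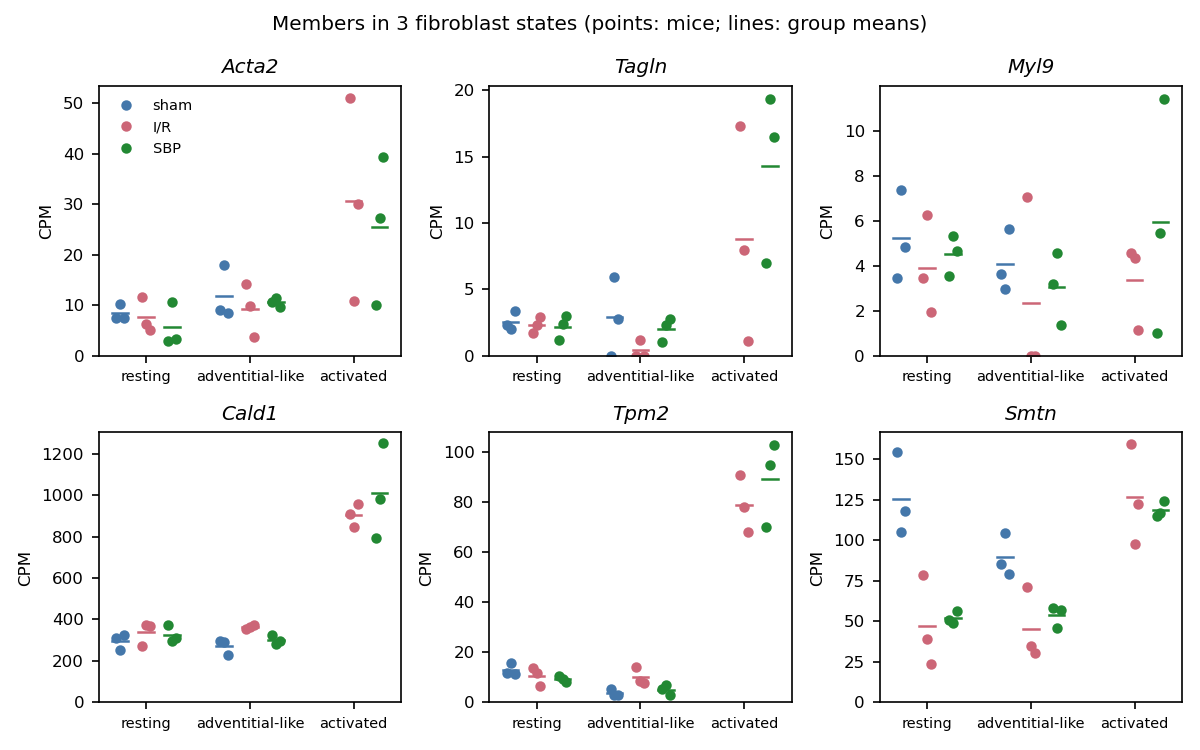
Level in CPM (vertical axis) of 6 members in the 3 fibroblast states, with each point a mouse with at least 20 nuclei of that state and each line a group mean; sham hearts had 2 to 4 activated nuclei each and are not shown there. Tpm2 and Cald1 in activated fibroblasts lay above all other points, while Smtn was higher in sham than in I/R and SBP resting fibroblasts.

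Activated fibroblasts held more UMIs per nucleus, with a median of 3074 against 1697 in resting fibroblasts and 1724 in myeloid cells, so the share of nuclei with a UMI was also taken after thinning each nucleus to 1000 UMIs. Tpm2 was then found in 8.51% of activated and 1.03% of resting fibroblasts, and in 0.491% of myeloid cells, which are not known to use it (22.8%, 1.93% and 0.961% before thinning). Cald1 was found in 51.0%, 25.2% and 4.27% (75.5%, 38.4% and 7.53% before). Acta2 was found in 3.02% of activated fibroblasts, but in resting fibroblasts (0.713%) at no more than in myeloid cells (0.928%), so that share was not above the one in cells not known to use it (8.24%, 1.25% and 1.70% before). Nuclei under 1000 UMIs were left out, 206 activated, 1071 resting and 207 myeloid.

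In all fibroblasts together, caldesmon and beta-tropomyosin were higher after I/R than in sham hearts, and the other members did not pass the test. Cald1 stood at 307, 259 and 315 CPM in the sham, 592, 559 and 490 in the I/R and 477, 566 and 499 in the SBP hearts. Every I/R and SBP heart was above every sham heart. Cald1 rose by 0.82 on the log2 scale (SE 0.14, adjusted p = 0.00352 by limma over all genes) in I/R against sham and by 0.77 in SBP against sham (SE 0.14, adjusted p = 0.00732). Tpm2 stood at 10.1, 15.1 and 10.5 CPM in the sham, 51.9, 37.5 and 19.2 in the I/R and 25.6, 43.0 and 26.4 in the SBP hearts, again without overlap with sham. It rose by 1.37 (SE 0.32, adjusted p = 0.0183) in I/R against sham and by 1.29 (SE 0.32, adjusted p = 0.0362) for SBP. These 2 were called of 7 members tested, while 11.4% of all 13082 genes tested were called in I/R against sham and 5.99% in SBP against sham. The I/R call for Tpm2 was lost without I/R mouse 2 (adjusted p = 0.0726), sham mouse 1 (0.0643) or sham mouse 3 (0.0773), and when the mean over nuclei was used in place of summed UMIs (1.08, adjusted p = 0.128). Without I/R mouse 1 it was 1.09 (adjusted p = 0.0442). The SBP call for Tpm2 was lost without any 1 of the SBP mice (adjusted p of 0.0666 to 0.152), sham mouse 1 (0.12), sham mouse 3 (0.136) or I/R mouse 2 (0.0501), with the highest-scoring nuclei removed (0.0552) and with the mean over nuclei (0.93, adjusted p = 0.262). That for Cald1 was lost without SBP mouse 2 (0.0508) and with the mean over nuclei (0.49, adjusted p = 0.095).

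Acta2, the classical myofibroblast label, stood at 7.91, 11.1 and 7.55 CPM in sham fibroblasts, 31.2, 8.94 and 10.2 in I/R and 6.89, 17.3 and 11.9 in the SBP hearts. One I/R heart was high and the rest overlapped with sham, with a difference of 0.59 (SE 0.42, adjusted p = 0.437). Tagln was at 1.76 to 3.61 CPM in sham and 2.38 to 9.32 in I/R fibroblasts, a difference of 0.63 (SE 0.45, adjusted p = 0.434). The differences without I/R mouse 1, the high heart, were 0.07 for Acta2 (adjusted p = 0.936) and 0.22 for Tagln (adjusted p = 0.826). Myl9 (-0.58, SE 0.36, adjusted p = 0.354) and Myh11 (0.08, SE 0.53, adjusted p = 0.95) also overlapped between the groups. Smtn was at 138, 105 and 114 CPM in sham and 118, 61.4 and 44.2 in I/R fibroblasts, with a difference of -0.85 (SE 0.27, adjusted p = 0.0673). Without I/R mouse 1 that difference was -1.22 (adjusted p = 0.00155). SBP fibroblasts were at 70.6, 75.5 and 70.2 CPM, all below sham (-0.74, SE 0.27, adjusted p = 0.151, or 0.0165 without I/R mouse 1 in the fit). Cnn1 and Lmod1 were under the filter on low values.

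SBP and I/R fibroblasts did not differ in any member: 0 of 7 members and 0% of 13082 genes were called by limma, with 460 genes at an unadjusted p under 0.05. The SBP minus I/R differences were -0.05 (SE 0.14) for Cald1, -0.08 (SE 0.32) for Tpm2 and -0.28 (SE 0.42) for Acta2. Within activated fibroblasts, 0 of 5 members tested and 0% of 10479 genes were called in SBP against I/R (405 at an unadjusted p under 0.05). There Cald1 differed by 0.16 (SE 0.16), Tpm2 by 0.19 (SE 0.20), Acta2 by -0.18 (SE 0.64), Tagln by 1.02 (SE 0.73, adjusted p = 0.993) and Smtn by -0.04 (SE 0.19). The differences of Acta2, Tpm2 and Smtn without I/R mouse 1 were 0.30, 0.29 and 0.14, and none was called. A p that misses the threshold does not show that the groups were equal.

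In resting fibroblasts, which all groups held but in different clusters, Cald1 and Tpm2 did not pass the test. Of the nuclei clustered, 3215 in sham hearts but 185 in I/R hearts lay in the resting cluster led by Kcnip1, and 32 in sham but 1987 in I/R hearts in that led by Lvrn. Cald1 stood at 310, 254 and 323 CPM in sham and 271, 374 and 368 in I/R resting fibroblasts (0.19, SE 0.18, adjusted p = 0.615), and Tpm2 at 11.6, 15.6 and 11.2 in sham and 13.9, 11.8 and 6.50 in I/R (-0.27, SE 0.30, adjusted p = 0.667). Both overlapped between the groups, and without I/R mouse 1 the differences were 0.33 and -0.48, neither called. Acta2 was at 7.46 to 10.2 CPM in sham and 5.20 to 11.6 in I/R (-0.17, SE 0.43, adjusted p = 0.876). The difference between these values and those of all fibroblasts was not tested. In adventitial-like fibroblasts, where 1.28% of 7349 genes were called in I/R and 0.231% in SBP hearts against sham, 0 of 2 members tested were called in either. Cald1 was at 297, 292 and 228 CPM in sham and 354, 363 and 375 in I/R, without overlap, and differed by 0.43 (SE 0.17, adjusted p = 0.246). Smtn differed by -1.06 there (SE 0.31, adjusted p = 0.106), or by -1.42 without I/R mouse 1 (adjusted p = 0.0095).

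Smtn was the 1 of 6 members tested that was called in resting fibroblasts, where 3.58% of 11688 genes were called. It stood at 154, 105 and 118 CPM in sham, 78.8, 39.2 and 23.4 in I/R and 51.1, 48.8 and 56.2 in the SBP hearts. Every treated heart lay below every sham heart. It fell by 1.54 on the log2 scale in I/R against sham (SE 0.34, adjusted p = 0.0375). In SBP against sham, where 0.873% of genes were called, the difference was -1.21 (SE 0.34, adjusted p = 0.129, or 0.00762 without I/R mouse 1 and 0.0348 without I/R mouse 3 in the fit), and SBP and I/R differed by 0.33 (SE 0.34, adjusted p = 0.999, 0 genes called and 465 at an unadjusted p under 0.05). The I/R call was lost without I/R mouse 2 (adjusted p = 0.137), sham mouse 1 (0.14), sham mouse 3 (0.119) or any 1 of the SBP mice (0.0587 to 0.0608), with only the 6 mice compared (0.1) and with the members among the genes clustered (0.0693). Without I/R mouse 1 the difference was -2.00 (adjusted p = 0.000308). These values, too, compare sums of different resting clusters. In the sum of all fibroblasts but the activated ones, Smtn fell by 1.49 (SE 0.33, adjusted p = 0.0384), the only call among 6 members tested, while 3.51% of 12218 genes were called in I/R and 0.778% in SBP hearts against sham. That call was lost without I/R mouse 2 (0.126), any 1 SBP mouse (0.0582 to 0.0627) or any 1 sham mouse (0.0623 to 0.132). In SBP against sham Smtn differed there by -1.14 (adjusted p = 0.146, or 0.00837 without I/R mouse 1 in the fit).

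**Figure D4:**
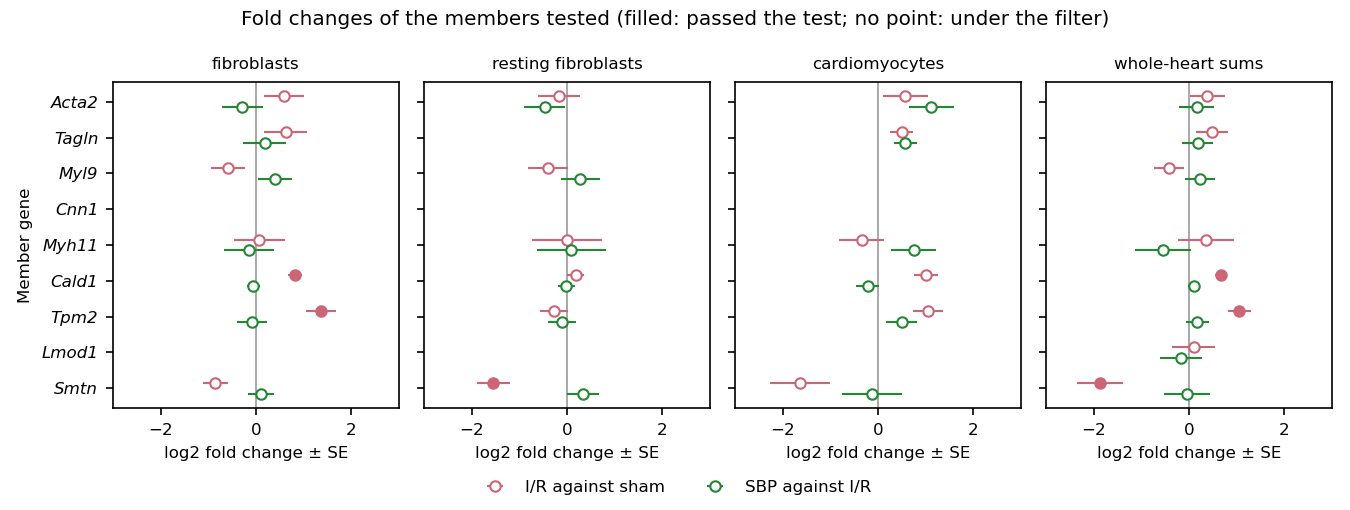
Log2 fold changes (horizontal axis, on TMM-scaled log2(CPM + 1), bars for 1 SE) of each member tested, for I/R against sham and SBP against I/R, in 4 sums of nuclei of 3 mice a group; filled points passed the test. Cald1 and Tpm2 were called higher in all fibroblasts and in whole-heart sums, Smtn lower in resting fibroblasts and in whole-heart sums, and no member was called between SBP and I/R.

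Cardiomyocytes held most of the Smtn of the heart. Smtn stood at 860, 1029 and 652 CPM in sham, 909, 150 and 143 in I/R and 145, 311 and 298 in the SBP hearts. I/R mouse 1 was at the sham level and the other 5 treated mice were below every sham mouse. The difference was -1.64 (SE 0.63, adjusted p = 0.279) for I/R and -1.76 (SE 0.63, adjusted p = 0.269) for SBP against sham, and 0 of 6 members tested were called in either, where 0.814% and 0.14% of 12903 genes were called. Without I/R mouse 1, Smtn fell by 2.54 in I/R against sham (adjusted p = 0.00196) and by 1.76 in SBP against sham (adjusted p = 0.0116). That mouse is the one whose cardiomyocytes mostly lay in the cluster led by Mhrt, with the sham mice. Smtn was itself higher in that cluster, as given below, so leaving the mouse out is tied to the level of Smtn. The difference of SBP from sham was -1.76 with and without it, so that p-value changed through the spread shared by all mice. In the cluster led by Fstl4, which also held Ankrd1 and Myh7 among its leading genes, Smtn was at 607, 875 and 570 CPM in sham, 475, 150 and 140 in I/R and 144, 294 and 296 in the SBP hearts, all treated mice below all sham mice. The difference there was -1.41 (SE 0.41, adjusted p = 0.128), with a median of 0.19 over all 12282 genes, 0.92% of them called, and 0 of 7 members. Without I/R mouse 1 it was -2.00 (adjusted p = 0.0178). Within a mouse, Smtn was 1.06 to 2.16 times as high in the cluster led by Mhrt as in that led by Fstl4, in 7 of 7 mice. In the cluster led by Mhrt, where 7 mice were tested, it differed by -0.88 in I/R against sham (SE 0.57, adjusted p = 0.627), or by -2.08 without I/R mouse 1 (adjusted p = 0.00246). That leaves 1 I/R mouse with 44 such nuclei, which is assumed to vary like the other groups. After thinning to 1000 UMIs, Smtn was found in 57.0% and 22.7% of the nuclei of the 2 clusters, respectively (93.3% and 60.2% before).

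**Figure D5:**
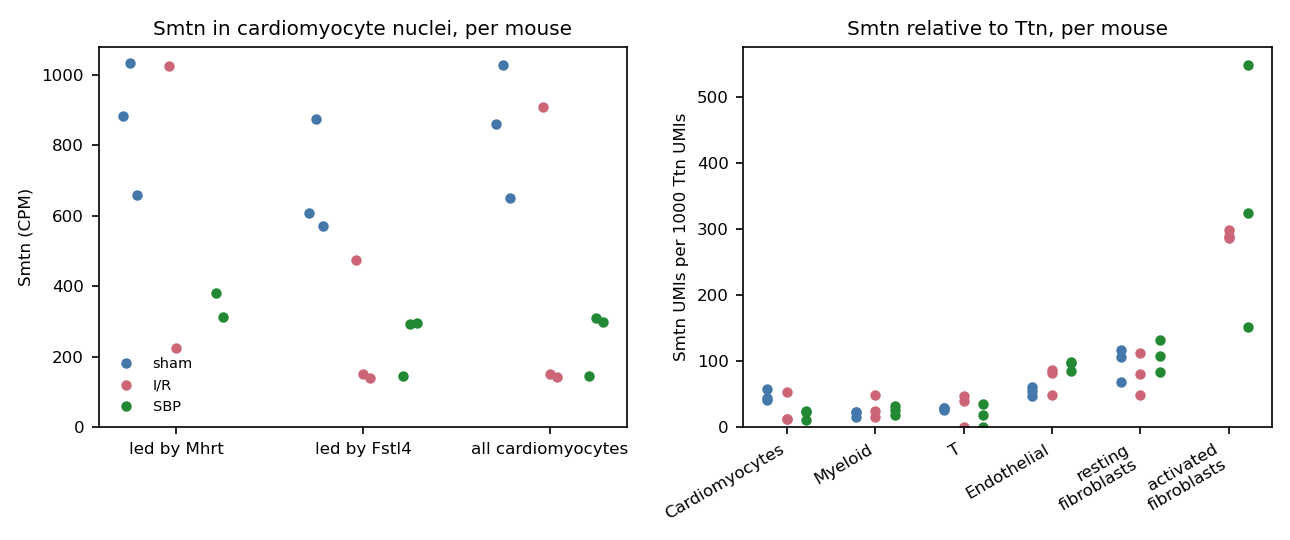
Left: Smtn level in CPM in the 2 cardiomyocyte clusters and in all cardiomyocytes, each point a mouse with at least 20 such nuclei. Right: Smtn UMIs per 1000 Ttn UMIs, each point a mouse. I/R mouse 1 is the highest I/R point at left, among the sham points in the cluster led by Mhrt and in all cardiomyocytes and below them in that led by Fstl4, and the ratio at right was highest in activated fibroblasts (151 to 547).

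The other members were low in cardiomyocytes, and some were higher after injury without passing the test. Cald1 was at 14.6, 14.8 and 12.1 CPM in sham, 32.8, 36.1 and 20.4 in I/R and 30.1, 17.97 and 24.5 in the SBP hearts, with no overlap between sham and treated mice. It differed by 1.00 in I/R against sham (SE 0.25, adjusted p = 0.0971), or by 1.25 without I/R mouse 3 (adjusted p = 0.028). Tpm2 was at 1.28 to 2.62 CPM in sham, 3.86 to 6.70 in I/R and 4.35 to 10.4 in the SBP hearts, again with no overlap with sham. Its difference was 1.05 (SE 0.32, adjusted p = 0.176) for I/R and 1.55 (SE 0.32, adjusted p = 0.0801, or 0.0314 without I/R mouse 1 in the fit) for SBP. Tagln, at 0.554 to 0.788 CPM in sham and 1.96 to 2.85 in the SBP hearts, differed by 1.07 (SE 0.24, adjusted p = 0.0949). Acta2 was at 2.40, 4.01 and 3.15 CPM in sham, 7.75, 5.45 and 3.24 in I/R and 23.5, 14.1 and 4.94 in the SBP hearts. Fibroblast transcripts moved in the same sums. Of 12 activation markers of fibroblasts tested there, 4 were called higher in I/R against sham (Tnc by 3.04, Lox by 2.56, Thbs1 by 2.29, and Timp1), beside 0.814% of all genes. In SBP against sham 3 were called higher, beside 0.14% of all genes. The part of fibroblast transcripts in the differences of Cald1, Tpm2, Tagln and Acta2 was not tested. For Acta2, SBP and I/R overlapped, and the difference of 1.12 had an unadjusted p of 0.0374 (adjusted p = 1, by limma). Of 12903 genes, 0% were called between SBP and I/R cardiomyocytes, with 279 at an unadjusted p under 0.05.

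Transcripts of cardiomyocytes were found in every other cell type, and they moved with the groups. Ttn stood at 1302 CPM ± 209 in sham and 501 ± 103 in I/R fibroblasts, at 1856 ± 332 and 578 ± 96.4 in myeloid cells, and at 2263 ± 376 and 1032 ± 146 in endothelial cells. In cardiomyocytes, Smtn gave 41.1 to 57.1 UMIs per 1000 Ttn UMIs for sham, 11.8 to 53.6 for I/R and 10.2 to 23.8 for SBP hearts, so the ratio of other cells was set against that of the cardiomyocytes of the same mouse. Myeloid cells (14.9 to 48.1) were below their own cardiomyocytes in 3 of 3 sham mice, at 0.367 to 0.543 times their ratio, and above them in 5 of 6 treated mice, at 0.898 to 2.10 times. T cells (0 to 46.5) were above in 2 of 9 mice. B cells (19.4 to 90.9) were above in 0 of 3 sham and 3 of 4 treated mice, at 0.443 to 7.52 times, from 1 to 12 Smtn UMIs a mouse. Endothelial cells (46.6 to 99.2) were above in 8 of 9 mice, at 0.964 to 8.33 times, and resting fibroblasts (48.5 to 132) in 9 of 9, at 1.19 to 8.10 times. Activated fibroblasts (151 to 547) were above in 6 of 6, at 5.56 to 24.4 times. Whether Smtn in myeloid, T, B or endothelial cells is free RNA was not tested. In resting fibroblasts it was 97.2 ± 26.0 for sham, 80.3 ± 32.0 for I/R and 107.5 ± 24.5 for SBP hearts. The part of cardiomyocyte transcripts in the fall of Smtn in resting fibroblasts was not tested.

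Endothelial and myeloid cells served as types that should lack most members. In endothelial cells, where 2.58% of 12021 genes were called in I/R against sham and 1.78% in SBP against sham, 0 of 7 members tested were called. Smtn differed most clearly, at 114, 143 and 110 CPM in sham and 98.6, 71.4 and 53.1 in I/R (-0.70, SE 0.21, adjusted p = 0.117, or -0.93 and 0.0297 without I/R mouse 1). Cald1 was at 215 to 224 CPM in sham and 188 to 401 in I/R endothelial cells, with overlap (0.34, SE 0.21, adjusted p = 0.447, or 0.06 without I/R mouse 1). The myeloid sums compared hold different clusters in the groups. Of the nuclei clustered, the cluster led by Gpnmb held 31 from sham hearts, 2451 from I/R and 1652 from SBP hearts. That led by Slfn4 held 1, 808 and 71 in the same order, and that led by Cd163 held 1731, 1250 and 1064. The part of these clusters in the myeloid differences was not tested. In myeloid cells, where 17.6% of 10911 genes were called for I/R and 12.5% for SBP, each against sham, 0 of 3 members tested were called. Smtn was at 46.7, 46.7 and 23.7 CPM in sham and 32.8, 12.1 and 8.32 in I/R (-1.20, SE 0.42, adjusted p = 0.0705, or -1.71 and 0.00331 without I/R mouse 1) and differed by -1.36 in SBP against sham (adjusted p = 0.0555, or 0.00822 without I/R mouse 1 in the fit), beside lower Ttn in the same cells. Tpm2 was at 2.75 to 5.00 CPM in sham and 3.61 to 6.40 in I/R myeloid cells, where it was under the filter and the groups overlapped. Between SBP and I/R, 0% of genes were called in endothelial cells (628 at an unadjusted p under 0.05) and in myeloid cells (420).

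In whole-heart sums, for which all nuclei of a mouse were added up, 3 of 8 members tested were called in I/R against sham, where 11.1% of 16044 genes were called. In such sums, fewer cells of a type and less RNA per cell cannot be told apart. Cald1 stood at 122, 119 and 109 CPM in sham, 216, 217 and 169 in I/R and 207, 196 and 222 in the SBP hearts, and rose by 0.67 (SE 0.12, adjusted p = 0.0122). Tpm2 stood at 4.29, 6.35 and 5.23 CPM in sham, 18.6, 13.6 and 8.21 in I/R and 12.7, 16.4 and 13.9 in the SBP hearts, and rose by 1.06 (SE 0.24, adjusted p = 0.0255). Both were higher in every treated than in every sham heart. Smtn stood at 511, 546 and 417 CPM in sham, 387, 85.9 and 87.2 in I/R and 97.3, 164 and 155 in the SBP hearts, and fell by 1.87 (SE 0.48, adjusted p = 0.0374), or by 2.57 without I/R mouse 1 (adjusted p = 0.000402). Its call was lost without I/R mouse 2 (adjusted p = 0.13), I/R mouse 3 (0.0733), SBP mouse 1 (0.0505) or 3 (0.0597), or any 1 sham mouse (0.0903 to 0.105), and with only the 6 mice compared (0.0739). The Tpm2 call was lost without I/R mouse 2 (adjusted p = 0.0725) or any 1 sham mouse (0.05001 to 0.0897), with only the 6 mice compared (0.0563) and with the mean over nuclei (0.93, adjusted p = 0.0686). The Cald1 call was lost without sham mouse 3 (0.0542) and with the mean over nuclei (0.34, adjusted p = 0.164).

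In SBP against sham, 3.15% of genes were called in whole-heart sums, and Cald1 (0.76, SE 0.12, adjusted p = 0.0164) and Tpm2 (1.23, SE 0.24, adjusted p = 0.0355) rose, while Smtn differed by -1.92 (SE 0.48, adjusted p = 0.0615). The Cald1 call was lost without SBP mouse 1 (0.0807) or 3 (0.059) or sham mouse 1 (0.053) or 3 (0.0872), and the Tpm2 call without any 1 SBP mouse (0.0818 to 0.107) or sham mouse (0.0559 to 0.129). With the mean over nuclei both were lost (0.41, adjusted p = 0.165 for Cald1 and 0.96, adjusted p = 0.114 for Tpm2). The Tpm2 call was also lost with the replicate number as a block. With I/R mouse 1 left out of the fit, Smtn fell by 1.92 with an adjusted p of 0.000968. Smtn stayed uncalled in 15 of 19 alternatives, and its adjusted p by limma ran from 0.000968 to 0.191 over all 19. Acta2 was at 4.88, 10.9 and 10.8 CPM in sham and 18.8, 11.1 and 8.27 in I/R hearts, and Myh11 at 4.39, 9.56 and 19.7 in sham and 11.4, 17.8 and 11.6 in I/R, both with overlap. Between SBP and I/R, 0 of 8 members and 0% of genes were called (724 at an unadjusted p under 0.05). The same 3 members were called in I/R against sham when the 156 mural nuclei were left out, where 11.2% of 16045 genes were called (3.28% in SBP against sham, with Cald1 and Tpm2 among them).

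Of 25 further contractile and adhesion genes of smooth muscle, 23 were tested in fibroblasts. In I/R against sham 1 was called higher and 3 lower, where 11.4% of all genes were called, and their median difference was -0.27, beside a median of -0.00 over all genes tested. Actn1, an actin crosslinker, rose by 1.72 (SE 0.37, adjusted p = 0.0147), while Fhl2 (by 1.27), Synpo2 (by 0.97) and Tpm1 (by 0.92) fell. Fhl2, Synpo2 and Tpm1 are also used by heart muscle, and they fell in endothelial cells as well (by 1.25, 1.34 and 0.90) and in myeloid cells (by 1.89, 2.09 and 1.30). Their fall went beside that of Ttn in those cells, and its part was not tested. In resting fibroblasts the same 3 of 23 were called lower and 0 higher, where 3.58% of all genes were called, and in cardiomyocytes 0 of 21 (0.814%). In myeloid cells, where 17.6% were called, 1 of 21 was called higher (Actn1, by 1.05) and 6 lower, with Itga8 (by 1.78), Mylk (by 1.35) and Prkg1 (by 0.69) beside the 3 above. In whole-heart sums, where 11.1% were called, 0 of 23 were called higher and 3 lower (Synpo2 by 1.38, Fhl2 by 1.19 and Ppp1r12b, a subunit of myosin phosphatase, by 0.61).

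Of 14 regulators of the program, all tested in fibroblasts, 0 were called higher and 2 lower in I/R against sham, a share near the 11.4% of all genes called there. Myocd, the cofactor of serum response factor in smooth and heart muscle, fell by 1.72 (SE 0.23, adjusted p = 0.00064) in I/R against sham and by 2.07 (SE 0.23, adjusted p = 0.000463) for SBP. Mef2c fell by 0.77 (SE 0.20, adjusted p = 0.029) in I/R. Myocd fell in resting fibroblasts (by 1.43, adjusted p = 0.0115), endothelial cells (by 1.33, adjusted p = 0.0407), myeloid cells (by 1.74, adjusted p = 0.000582) and whole-heart sums (by 1.14, adjusted p = 0.0244) too. Heart muscle also uses Myocd, and Ttn was lower in the same fibroblasts, endothelial and myeloid cells, as given above. The part of cardiomyocyte transcripts in the fall of Myocd was not tested. Srf and the TEAD and YAP genes were not called in fibroblasts. In cardiomyocytes 0 of the 14 regulators were called, where 0.814% of all genes were called in I/R and 0.14% in SBP hearts against sham. In myeloid cells, where 17.6% of all genes were called, Mrtfa rose by 0.60, and Mef2c (by 1.61), Wwtr1 (by 0.80) and Smad3 (by 0.75) fell beside Myocd. Yap1 (by 1.03) and Tead1 (by 0.89) fell there in SBP against sham (12.5%). The myeloid sums compared hold different clusters in the groups, as given above.

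Of 16 markers of fibroblast activation, 9 were called higher and 0 lower in I/R against sham fibroblasts, where 11.4% of all genes were called. Their median difference was 2.61, beside -0.00 over all genes, and several of them named the activated state here. Tnc, an injury matrix protein, rose by 6.66 (SE 0.32), Cthrc1, a secreted collagen triple helix protein, by 6.01 (SE 0.39), Timp1, an inhibitor of matrix proteases, by 4.60 (SE 0.40) and Col12a1 by 4.01 (SE 0.32). Ltbp2 (3.45), Lox (3.55), Fn1 (3.58), Postn (2.95) and Runx1 (2.26) were also called. In resting fibroblasts, where 3.58% of all genes were called, 3 of 15 were called higher (Timp1, Tnc and Lox) and 1 lower (Col8a1). Tnc and Timp1 were called higher in endothelial (by 3.78 and 3.75) and myeloid cells (by 3.37 and 4.54) as well. Activated fibroblasts, which are high in Tnc, made up 0.200% of sham and 24.8% of I/R fibroblasts. The myeloid clusters also differed between the groups, as given above. The part of fibroblast transcripts in the rises in endothelial and myeloid cells was not tested. In endothelial cells 7 of 14 were called higher and 0 lower, beside 2.58% of all genes, among them Thbs1 (by 2.54) and Loxl2 (by 1.58). In myeloid cells 6 of 9 were called higher and 1 lower (Runx1, by 0.63), beside 17.6%, with Thbs1 higher by 5.88. Fap fell there in SBP against sham (by 1.09). In whole-heart sums 10 of 16 were called higher and 1 lower (Comp, by 1.34), beside 11.1%.

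Of 8 relatives of the members among actins and tropomyosins, 7 were tested in fibroblasts. In I/R against sham 1 was called higher and 1 lower there, where 11.4% of all genes were called. Actb, the cytoplasmic beta-actin, rose by 1.34 (SE 0.29, adjusted p = 0.0134) in I/R against sham, and Tpm1 fell. Actb also rose in resting fibroblasts (by 1.38, adjusted p = 0.0407, where 3.58% of genes were called), myeloid cells (by 1.08, adjusted p = 0.0172), cardiomyocytes (by 1.51, adjusted p = 0.00536) and whole-heart sums (by 1.42, adjusted p = 0.014). The reads of actin genes are similar in sequence, and counts between them are to that extent uncertain. In whole-heart sums, where 11.1% of genes were called, 2 of 7 were called higher and 1 lower: beside Actb, Tpm3 rose by 0.59 and the cardiac actin Actc1 fell by 1.70. Actg1, the cytoplasmic gamma-actin, rose in cardiomyocytes in SBP against sham (by 1.12). Between SBP and I/R, 0 genes of the 4 lists were called in any of these cell types.

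The 8 genes outside the set whose levels were most like the mean of the 9 members, over 56 sums of a cell type in a mouse, were Kcnab1 (Pearson r = 0.842), Olfr78 (0.788), Il34 (0.787), Slc38a11 (0.786), Ccdc3 (0.786), Stac (0.770), C1s1 (0.769) and Daam2 (0.749). Only 2 of the 56 sums were mural, and sums of 1 mouse share a library, so these values are descriptions. The members' own r with that mean, which they enter, ran from 0.310 for Smtn to 0.853 for Myh11. Among pairs of members r was highest for Myh11 with Lmod1 (0.792) and with Acta2 (0.774), and lowest for Cald1 with Smtn (-0.04).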

How the data were processed

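sNuc-seq (10x Genomics) was done on hearts of 9 mice, 3 each of sham, I/R and SBP. The submitters' processing notes name GRCm38, Cell Ranger 4.0, STAR and Seurat 3.2.0, and the study's methods name later releases of Cell Ranger and Seurat. The authors kept nuclei with over 200 genes and under 10% mitochondrial UMIs, brought the libraries to a like read depth and removed mitochondrial genes. In the deposited data the lowest number of genes per nucleus was 405 to 460 over the mice, above that cut of 200. Per the file headers each table holds 1 nucleus a column. The deposited values are natural log values, ln(1 + 10000 × UMIs of the gene / UMIs of the nucleus), as their undone sums of 9999.5 to 10000.5 per nucleus show. Whether introns were counted is not given in the sources used here.

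UMIs were recovered from each nucleus's smallest step, and at least 99.9994% of values lay within 0.1 UMI of a whole number. The log unit kept limma as the test, as planned, with no count model. Scrublet marked 85 nuclei (removed), under the 0.5% below which a caller is taken not to have worked, so doublets were in effect not removed; an alternative removed the highest-scoring nuclei at 0.8% per 1000. Nuclei were clustered on 2000 variable genes without the 9 members (30 components, 20 neighbours, Leiden resolution 1) with scanpy 1.11.5. That resolution was chosen after 0.3 had not separated mural nuclei. At resolution 1, mural and Schwann nuclei still shared a cluster. It was clustered again (10 components, resolution 0.3), which gave the mural clusters and the Schwann cells. A cluster needed 3 markers, each in 10% of nuclei and 2-fold over other clusters, or 1.5-fold for a fibroblast state.

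UMIs were summed per mouse and cell type (20 nuclei needed), scaled by TMM and tested as log2(CPM + 1) with limma 3.58.1 (trend, robust) in R 4.3.3, with all 9 mice in one fit by group. Fold changes on this scale are too small for low genes. The filter kept genes with 15 UMIs in all that reached, in 3 samples, the level worth 10 UMIs at median depth. A gene was called at the study's thresholds, a log2 fold change beyond 0.25 in size with a Benjamini-Hochberg adjusted p not above 0.05. The authors named DESeq2 for their own differential expression. The code was tested on simulated data. Shares were compared by two-sided exact permutation tests. Intervals are 95% exact Poisson and cover counting error only. The 9 members were named in all cell types, along with every gene of 4 lists called in any of these sums, at least once, and the 8 genes most like the members. Members and lists were chosen with earlier results of these data known. Replicate libraries differed beyond sampling noise in every pair of a group (chi-square per gene 15.6 to 72.7), so none was counted as a repeat.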

Additional observations from a re-analysis of the deposited data

How the results depend on the processing

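Members were tested by limma in up to 3 contrasts in each type with enough nuclei, and the alternatives changed pseudocount, scaling, filter, doublet handling, naming of nuclei and the mice in the fit. Between SBP and I/R the number of members called was 0 under every alternative run in fibroblasts, resting fibroblasts, cardiomyocytes, endothelial cells, myeloid cells and whole-heart sums. In mural nuclei it was 2 of 4 (1.42% of all genes), and 1 of 4 in SBP against sham (2.12%), with the members clustered (4 mice, 2 groups of 1), and 0 by marker scores, with no doublets removed and at 10 nuclei. With the mean over nuclei in place of summed UMIs, 1 member was called in fibroblasts in I/R against sham and 0 in SBP against sham, and in whole-heart sums 1 and 0. With the highest-scoring nuclei removed, 1 was called in fibroblasts in SBP against sham. With the members among the genes clustered, 0 were called in resting fibroblasts in I/R against sham. With only the 6 mice compared, 0 were called in resting fibroblasts and 1 in whole-heart sums in I/R against sham, and in SBP against sham 1 in resting fibroblasts, 2 in cardiomyocytes, 1 in endothelial and 1 in myeloid cells. The cause of these changes was not tested.

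Leaving out 1 mouse moved the number called in I/R against sham between 1 and 3 in fibroblasts, 0 and 1 in resting fibroblasts, cardiomyocytes, endothelial and myeloid cells, and 0 and 3 in whole-heart sums. In SBP against sham it moved between 0 and 3 in fibroblasts and whole-heart sums, 0 and 2 in cardiomyocytes, and 0 and 1 in resting fibroblasts and myeloid cells. The mural share differed by -0.353 to -0.124 percentage points in I/R against sham, by 0.0160 to 0.208 in SBP against I/R and by -0.225 to -0.0246 in SBP against sham. When nuclei were named by marker scores, the mural share was 7.31% for sham, 4.50% for I/R and 4.79% for SBP hearts (exact permutation p = 0.1 for I/R and for SBP against sham, the smallest possible). That naming has no minimum score and takes in far more nuclei than the mural clusters.

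Replicate numbers are shared between groups, and 15 of 45 same-number correlations of deviations were over 0.1 (-0.395 to 0.297). In fibroblasts those of sham with SBP hearts were 0.127, 0.130 and 0.118, against -0.0875 to -0.0366 for other numbers. Those of sham with I/R hearts were -0.0726, -0.183 and 0.168, against -0.198 to 0.224. Those of I/R with SBP hearts were -0.235, -0.198 and 0.297, against -0.219 to 0.375. Whether mice with the same number share a batch was not tested. With the replicate block, 1 member was called in whole-heart sums and 1 in myeloid cells in SBP against sham, and in whole-heart sums in I/R against sham 2 in place of 3, since the Smtn call was lost (adjusted p = 0.0595). In fibroblasts Smtn was then called (adjusted p = 0.0482), 3 in place of 2. Among all genes, those called in fibroblasts in I/R against sham were 1494, against 924 with the mean over nuclei, 832 without I/R mouse 2 and 789 without sham mouse 3. In resting fibroblasts they were 418, against 157 with only the 6 mice compared, 72 without sham mouse 3 and 1021 without I/R mouse 1. In cardiomyocytes they were 105, against 65 with only the 6 mice compared and 22 to 809 without 1 mouse, in endothelial cells 310, against 188, 196 with the block and 66 to 489, in myeloid cells 1920, against 1253 without I/R mouse 2 and 1251 without sham mouse 2, and in whole-heart sums 1783, against 1004 with the 6 mice and 417 to 2584. In SBP against sham they were 784 in fibroblasts (329 with the mean over nuclei and 361 to 480 without SBP mouse 1 or 2 or sham mouse 3), 102 in resting fibroblasts (60 with the members clustered, 506 with the 6 mice, 17 to 351 without 1 mouse), 18 in cardiomyocytes (33 by marker scores, 11 with library totals, 9 with the mean over nuclei, 0 at a pseudocount of 5, 395 with the 6 mice, 0 to 279 without 1 mouse), 214 in endothelial cells (106 with the block, 452 with the 6 mice, 37 to 343 without 1), 1359 in myeloid cells (576 to 893 without SBP mouse 2 or 3 or sham mouse 2 or 3) and 506 in whole-heart sums (276 with the mean over nuclei, 301 with no filter, 249 with the block, 1605 with the 6 mice, 43 to 1026 without 1). In adventitial-like fibroblasts the 94 called in I/R against sham became 28 to 307 and the 17 in SBP against sham 0 to 64 without 1 mouse.

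Myh11 in fibroblasts (0.08 in I/R against sham, not called) changed sign to -0.25 with marker scores, -0.47 with the members clustered, -0.39 with the highest-scoring nuclei removed, -0.15 with the mean over nuclei and -0.30 to 0.36 without 1 mouse. In resting fibroblasts, without 1 mouse, Tpm2 ran from -0.48 to 0.0046 and Acta2 from -0.48 to 0.0275, above 0 without I/R mouse 3. Cald1 in I/R activated fibroblasts was 902 CPM from sums and 806 from the mean over nuclei. Marker scores could not be applied to fibroblast states or whole-heart sums. Depth limited Cnn1 and Lmod1, which were under the filter in most cell types, and the mural nuclei, for which no test was possible at 20 nuclei.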
